A study of Mus musculus with 18 samples.

Results

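Signals of 10 mouse genes of hepatic glucose production and insulin response were followed in 18 livers. The genes are G6pc, G6pc3, Pck1, Fbp1 and Pcx, which encode enzymes of gluconeogenesis, Slc37a4, which encodes the glucose 6-phosphate transporter, Foxo1, Irs1 and Irs2, which encode parts of the insulin signalling pathway, and Igfbp1, which encodes a secreted binding protein for insulin-like growth factors. They were taken by gene symbol, with the brightest transcript cluster (the array's unit for a gene) kept for each symbol, and all 10 were found among 36230 symbols that have a cluster of their own. Each of the 10 symbols had 1 cluster. RNA came from livers of healthy adult male mice, with 1 array per animal per the labels. All animals received an adeno-associated virus (AAV), a vector that delivers a gene to hepatocytes. By the sample titles there are 6 groups of 3 animals, which are HPNWT and EGFP, each at day 1, day 2 and day 4 of AAV transduction. EGFP is the green fluorescent protein, here the control, so every control liver carried the vector too. The series' design text describes liver-restricted overexpression of hepsin, the product of Hpn and a serine protease anchored in the cell membrane. The labels do not spell out HPNWT and give no strain, dose, promoter, exact age or feeding state, nor the event from which the days were counted.

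Gluconeogenesis makes glucose from lactate, amino acids and glycerol, and in the liver it sustains blood glucose between meals. Glucagon and glucocorticoids raise transcription of Pck1 and G6pc, and insulin lowers it, in large part because AKT phosphorylates the transcription factor FOXO1 and so keeps it out of the nucleus. Igfbp1 and Irs2 are also FOXO1 target genes, so insulin lowers their transcripts as well. G6pc and Igfbp1 transcripts are known to change quickly with feeding and fasting.

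The 4 sequences below are the 250 bases before the start of G6pc, Pck1, Irs2 and Igfbp1, shown because these are the members that insulin lowers through FOXO1 and whose signals are described in most detail below. All are written 5′ to 3′ on the strand of the gene, from RefSeq on GRCm38.p6. G6pc lies on the forward strand at chr11:101367466-101367715, Pck1 on the forward strand at chr2:173152823-173153072, Irs2 on the reverse strand at chr8:11008930-11009179 and Igfbp1 on the forward strand at chr11:7197537-7197786. Capitals mark CAAAACA or its reverse complement TGTTTTG, a core that FOXO factors bind, and TGACGT or its reverse complement ACGTCA, a core that CREB binds.
G6pc: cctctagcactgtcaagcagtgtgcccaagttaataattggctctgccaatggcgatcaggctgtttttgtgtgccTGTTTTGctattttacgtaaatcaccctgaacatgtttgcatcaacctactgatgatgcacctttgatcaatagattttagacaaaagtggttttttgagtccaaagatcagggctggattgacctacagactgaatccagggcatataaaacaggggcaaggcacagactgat
Pck1: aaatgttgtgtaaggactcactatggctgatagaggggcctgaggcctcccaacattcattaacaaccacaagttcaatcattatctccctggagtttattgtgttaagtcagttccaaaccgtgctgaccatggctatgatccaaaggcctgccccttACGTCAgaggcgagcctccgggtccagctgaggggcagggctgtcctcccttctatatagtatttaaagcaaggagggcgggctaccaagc
Irs2: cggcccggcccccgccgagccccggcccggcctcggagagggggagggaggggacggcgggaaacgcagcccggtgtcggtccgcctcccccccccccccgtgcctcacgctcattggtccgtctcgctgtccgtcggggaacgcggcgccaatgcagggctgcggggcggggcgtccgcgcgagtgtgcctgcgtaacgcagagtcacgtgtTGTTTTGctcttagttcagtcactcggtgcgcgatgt
Igfbp1: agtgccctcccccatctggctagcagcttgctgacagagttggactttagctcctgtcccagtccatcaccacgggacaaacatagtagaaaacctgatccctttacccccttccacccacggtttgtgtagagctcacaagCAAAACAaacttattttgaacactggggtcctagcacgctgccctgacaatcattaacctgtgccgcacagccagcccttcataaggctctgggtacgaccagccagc

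All 10 genes were matched in the RefSeq table, with 13 windows of 250 bases in all. The FOXO core CAAAACA was read on both strands in 4 of the 13 windows, those of G6pc, Irs1, Irs2 and Igfbp1, against 5.56% of 32851 windows of the same length. The other FOXO core searched, GTAAACA, was in 0 of the 13 windows and in 3.17% of all windows. The CREB core TGACGT was in 3 of the 13 windows, that of Pck1 and 2 overlapping windows of Slc37a4 that share the match, and in 6.47% of all windows. None of the 3 motifs overlaps another in these windows. A match describes letters in the window and does not show binding.

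The values are log2 signals from robust multi-array averaging (RMA), which the authors computed, and the number of arrays limits their precision. Array medians lay between 4.0 and 4.21 and correlations between arrays were 0.981 to 0.996. On the first principal component (30.59% of the variance) the HPNWT arrays scored 2.77 to 30.57 and the EGFP arrays −29.32 to −12.07. HPNWT day 1 replicate 3, at 2.77, lay nearest the EGFP arrays, and the next HPNWT array scored 14.36. On the second principal component the array HPNWT day 4 replicate 3 lay far from the rest (score 50.9), and on the third HPNWT day 1 replicate 1 did (score 31.8). The mouse Hpn cluster read 8.10 to 8.62 in the HPNWT arrays and 8.09 to 8.42 in the EGFP arrays. Its differences of −0.06, −0.08 and 0.11 log2 at days 1, 2 and 4 (SE 0.117) had adjusted p of 0.894, 0.731 and 0.809 in limma, so that overexpression could not be seen in this cluster. The sources used here do not say whether its probes would read the delivered sequence. The median signal of the negative-control probe sets was lower in HPNWT than in EGFP arrays, by 0.169 log2 at day 1, 0.368 at day 2 and 0.120 at day 4. Hepatocyte markers were bright in every array, with a summed level of 14.6 to 14.9 on the log2 scale. In whole liver, fewer cells of a type and less RNA per cell cannot be told apart.

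Averaged over the 3 days, 4 of the 10 genes were called lower in HPNWT than in EGFP livers and none was called higher. G6pc fell 4.22-fold, Pck1 1.54-fold, Irs2 1.35-fold and Fbp1 1.20-fold. The other 6 genes did not pass. None of the 4 was called with the negative-control median of each array as a covariate. A gene was called where its limma p, adjusted by the Benjamini-Hochberg method over all 40161 clusters with a symbol, was under 0.05. By this rule 15.2% of all clusters were called in the average over days, and 7.33% of all clusters were called lower. All 10 genes had means above the 95th percentile of the negative controls, 6.16 log2. In a fit of the 9049 clusters at or above it, 40.46% were called in the average, 1874 of them lower. At days 1, 2 and 4 that fit called 20.17%, 19.78% and 6.575%. Calls in either direction were thus common among clusters this bright. The 4 of 10 come from the fit of all clusters. The fit without dim clusters also called Pcx lower in the average (limma adjusted p = 0.0302). Whether the 10 genes differ from clusters this bright was not tested. The median difference of the 10 genes was −0.23 log2, against 0.02 over all clusters. At single days, 2 of the 10 were called at day 1 (Pck1 and Fbp1, background 4.59%), 1 at day 2 (G6pc, background 5.67%) and 1 at day 4 (G6pc, background 2.21%), all of them lower. The 3 HPNWT values lay below the 3 EGFP values without overlap for 2 genes at day 1 (background 8.21%), 5 at day 2 (background 13.1%) and 2 at day 4 (background 5.7%).

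**Figure D1:**
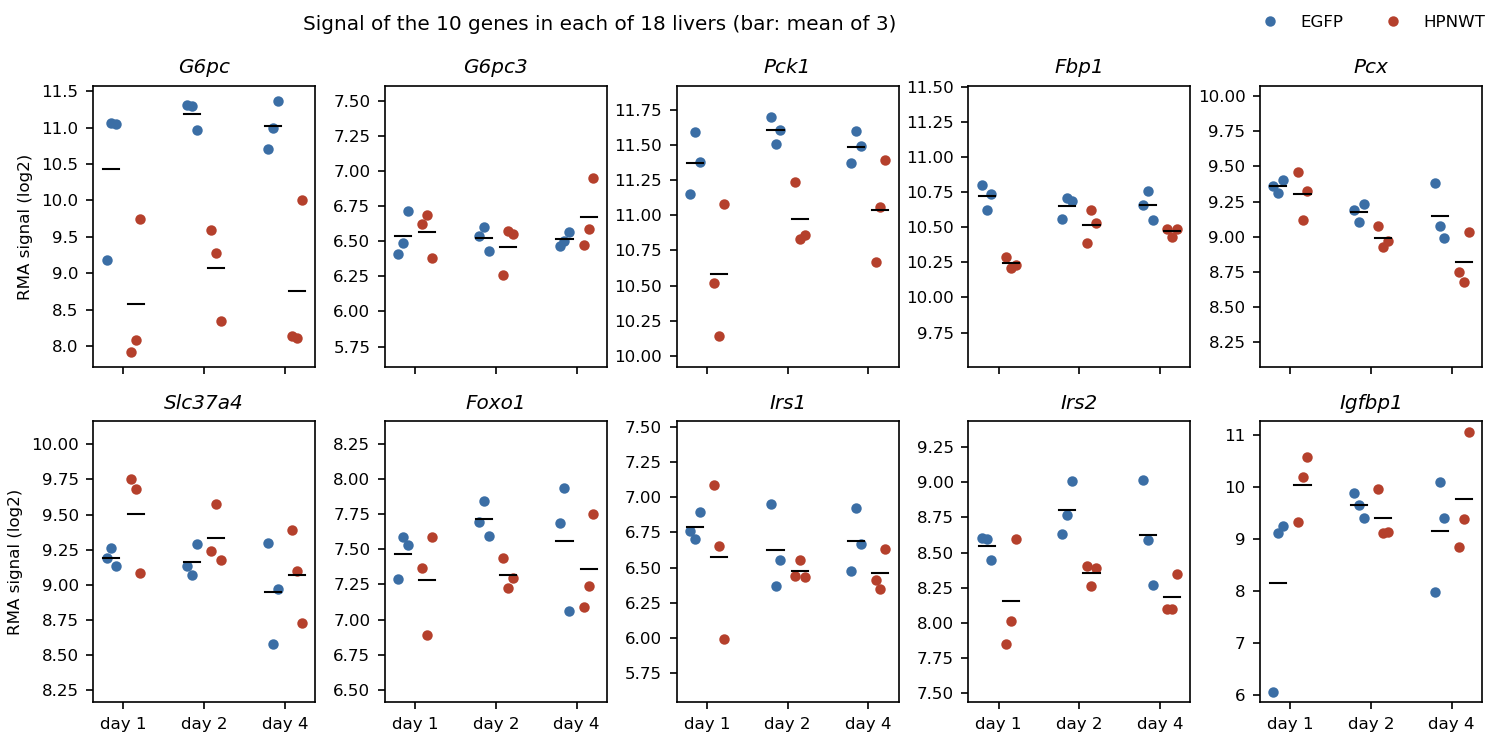
Log2 RMA signal of each of the 10 genes in the 18 livers, with a point per liver, blue for EGFP and red for HPNWT, and a black bar at the mean of 3. Each panel has its own log2 axis spanning at least 2 units. G6pc reads 10.7 or more in 8 of 9 EGFP livers and 10.01 or less in all 9 HPNWT livers.

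G6pc encodes the catalytic subunit of glucose 6-phosphatase, which releases free glucose in the last step of gluconeogenesis and of glycogen breakdown. At day 1 its log2 signal was 7.92, 8.09 and 9.75 in the 3 HPNWT livers and 9.19, 11.06 and 11.05 in the 3 EGFP livers. The groups overlapped there, because EGFP replicate 1 was low and HPNWT replicate 3 was high. The day 1 difference was −1.85 ± 0.572 log2 (SE, n = 3 against 3), with a limma adjusted p of 0.0823. At day 2 the HPNWT livers read 9.60, 9.27 and 8.35 and the EGFP livers 11.31, 11.30 and 10.96. There the groups were separate, and the difference of −2.12 ± 0.572 log2, or 4.34-fold, had a limma adjusted p of 0.0388. At day 4 the HPNWT livers read 8.14, 8.12 and 10.01 and the EGFP livers 10.70, 11.00 and 11.37. All 3 EGFP livers were again above all HPNWT livers, with HPNWT replicate 3 the nearest to them. The day 4 difference of −2.27 ± 0.572 log2, or 4.81-fold, had a limma adjusted p of 0.0496. Averaged over days G6pc fell by 2.08 ± 0.330 log2 (limma adjusted p = 0.00039). When the median of the negative controls was added to the model, the day 2 difference was −0.68 (limma adjusted p = 0.871) and the day 4 difference −1.80 (limma adjusted p = 0.113). The day 2 call was lost when any of the 6 arrays of that day was left out (limma adjusted p 0.0570 to 0.133). The day 4 call, whose p lay close to the threshold, was lost in the same way except without HPNWT day 4 replicate 3, where the difference was −2.89 (limma adjusted p = 0.00878). It was also lost without any of 9 arrays of the other days (limma adjusted p 0.0531 to 0.0677). The day 1 difference passed without HPNWT day 1 replicate 3 (−2.43, limma adjusted p = 0.0160) and without EGFP day 1 replicate 1 (−2.47, limma adjusted p = 0.0261). It also passed, at −1.85, without HPNWT day 4 replicate 3, which enters the shared estimate of the spread (limma adjusted p = 0.0350).

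G6pc3 encodes the widely expressed glucose 6-phosphatase catalytic subunit, best known from neutrophils. Its signal lay between 6.26 and 6.95 in all 18 livers, and the groups overlapped at each day. The average difference was 0.04 ± 0.0708 log2, with a 95% confidence interval from −0.11 to 0.19. That interval lies wholly above the interval of G6pc, which runs from −2.78 to −1.38. The difference between the genes was not tested.

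Pck1 encodes the cytosolic phosphoenolpyruvate carboxykinase, which turns oxaloacetate into phosphoenolpyruvate. At day 1 it read 10.52, 10.14 and 11.08 in HPNWT livers and 11.15, 11.59 and 11.38 in EGFP livers. The groups did not overlap, although HPNWT replicate 3 came close to the lowest control. At day 2 the HPNWT values were 11.24, 10.83 and 10.86 and the EGFP values 11.70, 11.51 and 11.61, again without overlap. At day 4 the HPNWT values were 10.67, 11.06 and 11.39 and the EGFP values 11.37, 11.60 and 11.49, with HPNWT replicate 3 inside the control range. The differences were −0.79, −0.63 and −0.45 log2 (SE 0.204), with limma adjusted p of 0.0355, 0.0852 and 0.380. Averaged over days Pck1 fell by 0.62 ± 0.118 log2 (limma adjusted p = 0.00158). The day 1 call was lost when HPNWT day 1 replicate 1 (−0.76) or replicate 2 (−0.57), or EGFP day 1 replicate 2 (−0.68) or replicate 3 (−0.79), was left out. The day 2 difference passed without HPNWT day 1 replicate 3 or HPNWT day 4 replicate 3 (limma adjusted p 0.0343 and 0.04995).

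Fbp1 encodes fructose 1,6-bisphosphatase, which removes the phosphate from carbon 1 of fructose 1,6-bisphosphate. At day 1 it read 10.29, 10.21 and 10.23 in HPNWT livers and 10.80, 10.62 and 10.74 in EGFP livers. The groups were apart by more than their own spreads, and the difference of −0.47 ± 0.0756 log2 had a limma adjusted p of 0.00162, the lowest of the 10 genes at that day. At day 2 the HPNWT values were 10.39, 10.62 and 10.53 and the EGFP values 10.56, 10.71 and 10.69, which overlapped. At day 4 the HPNWT values were 10.49, 10.43 and 10.49 and the EGFP values 10.66, 10.76 and 10.55, without overlap. The differences at these days were −0.14 and −0.18 log2, with limma adjusted p of 0.309 and 0.318. Averaged over days Fbp1 fell by 0.27 ± 0.0436 log2 (limma adjusted p = 0.00049). Its within-group SD of 0.0834 log2 was under the median of all clusters, 0.126, so a small difference passed.

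Pcx encodes pyruvate carboxylase, which supplies oxaloacetate in mitochondria. It read 8.68 to 9.46 in HPNWT livers and 8.99 to 9.41 in EGFP livers, and its 3 HPNWT values lay below the 3 EGFP values at day 2 only. Its differences at days 1, 2 and 4 were −0.06, −0.18 and −0.33 log2 (SE 0.110). The average of −0.19 ± 0.0636 log2 missed the threshold (limma adjusted p = 0.0548). It passed without dim clusters and with the replicate block (limma adjusted p 0.0302 and 0.0365). With array quality weights, which called 32.99% of all clusters, it was −0.27 and was called lower (limma adjusted p = 0.000617). Slc37a4, whose product carries glucose 6-phosphate into the endoplasmic reticulum where glucose 6-phosphatase acts, read 8.73 to 9.75 in HPNWT livers and 8.58 to 9.30 in EGFP livers. Its average difference was 0.20 ± 0.114 log2 (limma adjusted p = 0.280), and the groups overlapped at every day. With array quality weights the average was 0.28 and was called higher (limma adjusted p = 0.0308).

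Irs2 encodes an adaptor that couples the insulin receptor to phosphatidylinositol 3-kinase, with Irs1 as the related adaptor. At day 1 Irs2 read 7.85, 8.01 and 8.60 in HPNWT livers and 8.60, 8.60 and 8.45 in EGFP livers. At day 2 it read 8.41, 8.26 and 8.39 in HPNWT livers and 8.63, 8.77 and 9.01 in EGFP livers. At day 4 it read 8.10, 8.10 and 8.35 in HPNWT livers and 9.02, 8.59 and 8.27 in EGFP livers. The groups were separate at day 2 and overlapped at days 1 and 4. The 3 differences were close to each other, at −0.39, −0.45 and −0.44 log2 (SE 0.180), and none was called (limma adjusted p 0.297, 0.170 and 0.305). Their average of −0.43 ± 0.104 log2 was called (limma adjusted p = 0.00945). Without HPNWT day 1 replicate 3 the day 1 difference was −0.62, which passed (limma adjusted p = 0.0320).

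Irs1 read 5.99 to 7.09 in HPNWT livers and 6.37 to 6.96 in EGFP livers. Its average difference was −0.20 ± 0.119 log2 (limma adjusted p = 0.318, 95% confidence interval −0.45 to 0.06). Foxo1 encodes the transcription factor through which insulin acts on several of these genes. It read 6.89 to 7.75 in HPNWT livers and 7.06 to 7.93 in EGFP livers, without overlap at day 2 only. Its average difference was −0.26 ± 0.121 log2 (limma adjusted p = 0.176). With array quality weights the Foxo1 average was −0.46 and was called lower (limma adjusted p = 0.00113). It also passed, at −0.34, without EGFP day 4 replicate 3 (limma adjusted p = 0.0404). With the negative-control covariate it was 0.15 and was not called (limma adjusted p = 0.583). The array measures the Foxo1 transcript, not the location or phosphorylation of its protein.

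Igfbp1 had the widest spread of the 10 genes within groups. At day 1 it read 9.33, 10.20 and 10.59 in HPNWT livers and 6.05, 9.12 and 9.26 in EGFP livers. The 3 HPNWT values were the higher ones, and the share of all clusters separated upwards was not counted. EGFP replicate 1 lay far below the other controls and under the 95th percentile of the negative controls, 6.16 log2. At day 2 it read 9.96, 9.11 and 9.13 in HPNWT livers and 9.89, 9.67 and 9.40 in EGFP livers. At day 4 it read 8.86, 9.38 and 11.07 in HPNWT livers and 7.99, 10.10 and 9.40 in EGFP livers. The groups overlapped at both later days. The differences were 1.90, −0.25 and 0.61 log2 (SE 0.734), with limma adjusted p of 0.189, 0.878 and 0.832. Without EGFP day 1 replicate 1 the day 1 difference was 0.85 log2. Without HPNWT day 4 replicate 3 the day 4 difference was −0.046 log2. The average of 0.75 ± 0.424 log2 had a 95% confidence interval from −0.15 to 1.65 and did not pass (limma adjusted p = 0.278). Igfbp1 thus gave no call in either direction, while G6pc, Pck1 and Irs2 were called lower in the average over days. The intervals of Igfbp1 and G6pc do not overlap, and the difference between genes was not tested.

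**Figure D2:**
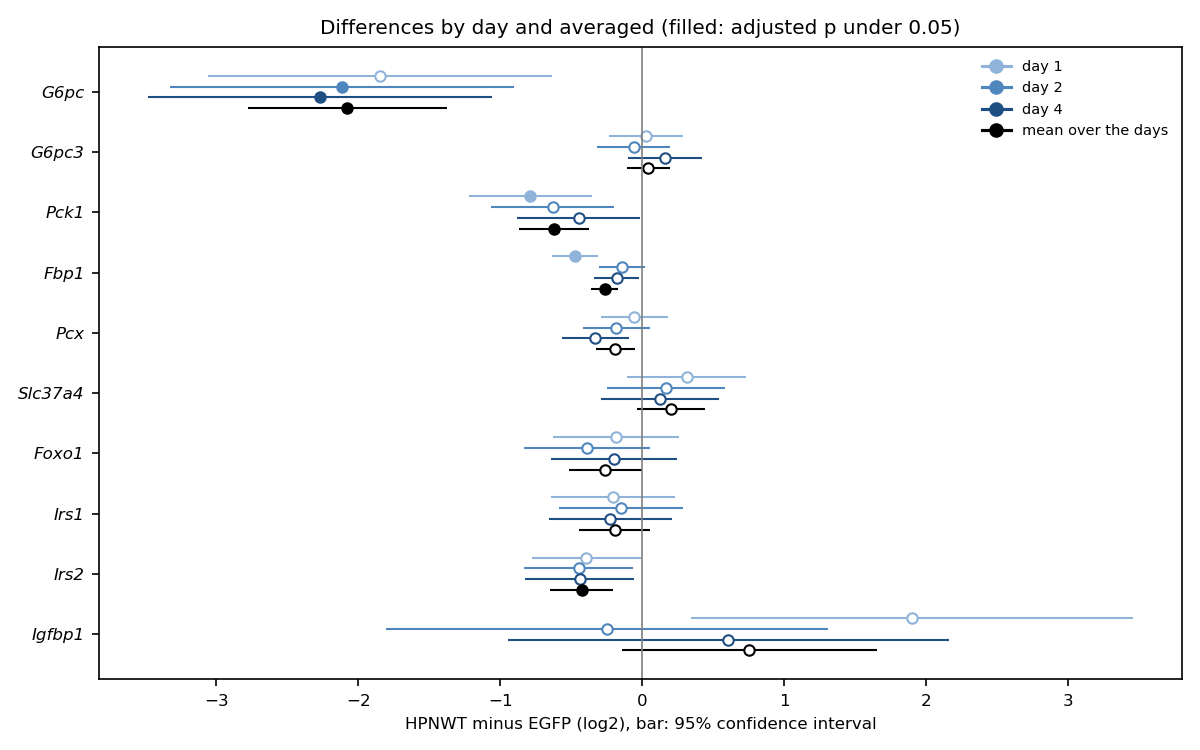
Difference HPNWT minus EGFP (log2, horizontal axis) of each gene at days 1, 2 and 4 (blue shades) and averaged over the days (black), with bars for the 95% confidence interval and filled points where the limma adjusted p is under 0.05. G6pc lies between −1.85 and −2.27 at the 3 days, and Igfbp1 has the widest intervals.

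The effects were not shown to differ between days for any of the 10 genes. The test of the difference between effects called 0 of the 10 for day 2 against day 1 (background 0.0%), 0 for day 4 against day 1 (background 0.0946%) and 0 for day 4 against day 2 (background 0.00498%). At an unadjusted p of limma under 0.05 these counts were 1, 1 and 0, and Fbp1 was the gene in both of the first counts. Its effect was smaller by 0.33 ± 0.107 log2 at day 2 and by 0.29 ± 0.107 log2 at day 4 than at day 1 (limma adjusted p 0.855 and 0.625). The F-test over the 3 days called 0 of the 10 genes in EGFP livers (background 0.0%), with 0 at an unadjusted p of limma under 0.05. In HPNWT livers it called 0 of the 10 (background 0.64%), with 2 at an unadjusted p of limma under 0.05. These were Pcx, with group means of 9.30, 8.99 and 8.82 at days 1, 2 and 4 (F = 9.86, limma adjusted p = 0.108), and Fbp1, with 10.24, 10.51 and 10.47 (F = 7.26, limma adjusted p = 0.221). No difference among the days within an arm passed the F-test for any of the 10 genes, and an order of days was not tested.

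Livers of the same group differed most in Igfbp1 and G6pc. The within-group SD was 1.04 log2 for Igfbp1 and 0.809 for G6pc, the 99.95th and 99.87th percentile of all clusters. For Pck1, Slc37a4, Foxo1, Irs1 and Irs2 it was 0.247 to 0.290 log2, for G6pc3 0.160 and for Pcx 0.141. After each group mean was subtracted, G6pc went with Igfbp1 over the 18 livers (Pearson r = 0.825, Spearman rho = 0.829) and with Pck1 (r = 0.781, rho = 0.709). Pck1 went with Igfbp1 (r = 0.629, rho = 0.746). Without the 2 livers farthest out on the first gene of each pair, r was 0.719, 0.738 and 0.788. Irs2 went less with these 3 genes, with r from −0.01 to 0.41. Slc37a4 ran the other way, with r of −0.71 against Pck1 and −0.54 against G6pc. These are descriptions over values that share their arrays and their normalisation. Within their groups, HPNWT day 1 replicate 3 and HPNWT day 4 replicate 3 were the highest in G6pc, Pck1 and Igfbp1 and the lowest in Slc37a4. EGFP day 1 replicate 1 was the lowest of its group in G6pc, Pck1 and Igfbp1.

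**Figure D3:**
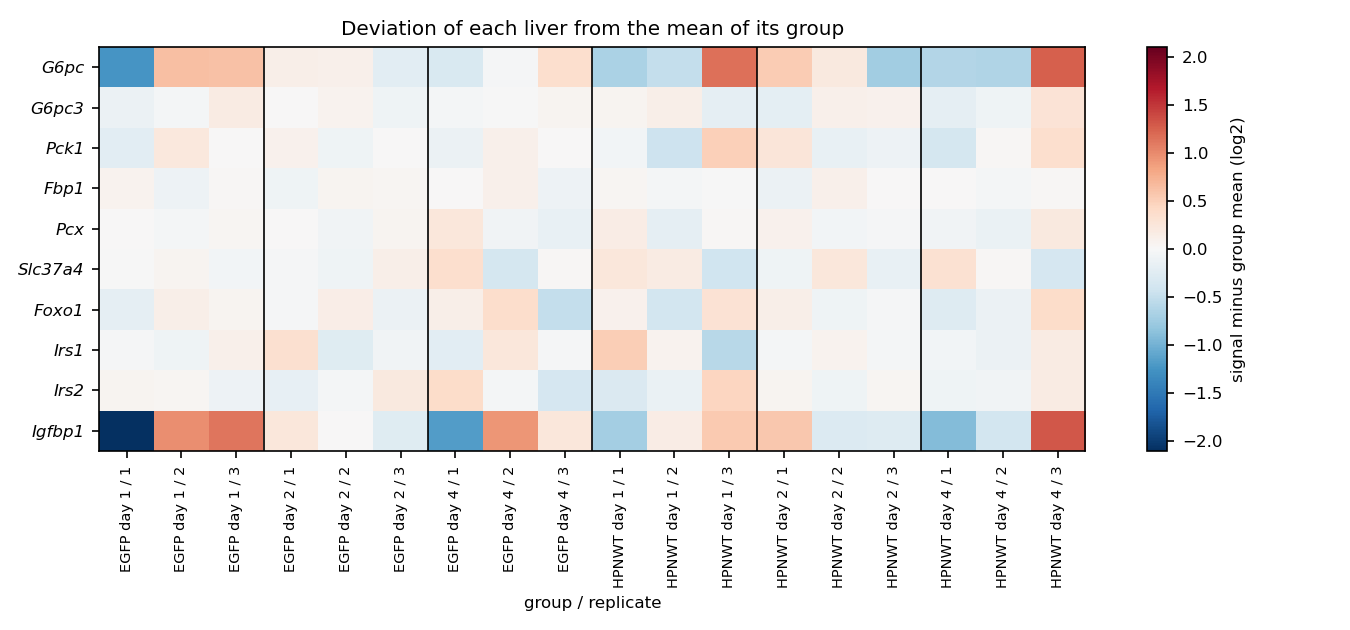
Log2 signal minus the mean of its group for the 10 genes (rows) in each liver (columns, group and replicate), red above and blue below the group mean. The columns of HPNWT day 1 replicate 3 and HPNWT day 4 replicate 3 are red for G6pc, Pck1 and Igfbp1, and that of EGFP day 1 replicate 1 is blue.

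The genes whose deviations were most like those of each member were taken from 5573 brightest clusters above the 95th percentile of the negative controls, over 18 livers. For G6pc they were Dusp1 (r = 0.874), a phosphatase of MAP kinases, Insig2 (r = 0.865), a retention protein for sterol regulators, and Ddc (r = 0.84), the aromatic amino acid decarboxylase. For Pck1 they were Tat (r = 0.896), the tyrosine aminotransferase long known as a glucocorticoid-induced liver gene, Pxmp4 (r = 0.877) and Ahr (r = 0.872). For Igfbp1 they were Irf2bp2 (r = 0.94), Trp53inp1 (r = 0.916) and Map3k13 (r = 0.903). Of these 9 genes, Ddc was lower in HPNWT livers by 1.64 ± 0.189 log2 and Tat by 0.39 ± 0.104 log2 in the average over days (limma adjusted p 2.1e-05 and 0.016). For Fbp1 the likeness was highest with Ndufb10, Mat1a and Asl (r 0.86 to 0.876) and for Pcx with F12, Grhpr and Acads (r 0.902 to 0.964). For Irs2 it was highest with Il1r1, Ern1 and Arhgef26 (r 0.803 to 0.841) and for Irs1 with Ccser2, Mlx and Ints3 (r 0.893 to 0.909). For Foxo1 the genes were Nf1, Slc25a51 and Abhd17c (r 0.91 to 0.925). For Slc37a4 they were Slc20a1, Sord and Epb41l4b (r 0.859 to 0.901), and for G6pc3 Pts, Pmf1 and Sgms2 (r 0.944 to 0.958).

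Other genes of the pathway were read from 5 lists, where the counts are set against the background of each comparison given above. In the average over days, 3154 of all 40161 clusters were called higher and 2943 lower. In the fit without dim clusters, 1787 of 9049 were called higher and 1874 lower. Among genes that insulin raises in liver, 7 of the 9 measured were higher in HPNWT livers in the average over days and none was lower, with a list median of 0.42 log2. At day 1 the called genes were Angptl8, a secreted regulator of lipoprotein lipase (2.63 ± 0.524 log2, limma adjusted p = 0.00811), Fasn, the fatty acid synthase (1.06 ± 0.252), and Acaca, the acetyl-CoA carboxylase that feeds it (0.65 ± 0.130). At day 2 there were 4 called genes, among them Angptl8 (2.78 ± 0.524), Acaca (0.75 ± 0.130) and Scd1, a fatty acid desaturase (0.56 ± 0.122). At day 4 Acaca was the 1 called gene (0.64 ± 0.130). With single arrays left out, 5 to 7 genes of this list were higher in the average, 1 to 4 at day 1, 2 to 5 at day 2 and 0 to 1 at day 4. The day 1 count was lowest without HPNWT day 1 replicate 1. The day 2 count was lowest if either HPNWT day 2 replicate 2 or EGFP day 2 replicate 1 was dropped, and the day 4 count if either HPNWT day 4 replicate 3 or EGFP day 4 replicate 3 was. Srebf1 was not matched by symbol.

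Of 10 other FOXO1 target genes, 2 were higher in the average and none was lower. These were Apoc3, an inhibitor of triglyceride clearance, called at each day (0.27, 0.42 and 0.48 log2, SE 0.0632), and Mttp, which loads lipid onto lipoproteins (0.30 ± 0.0797 at day 2). With single arrays left out, 2 were higher in the average in each case and 1 to 2 at day 2. The list median was 0.03 log2. Of 20 glucagon, cAMP and transcription regulators, 7 were lower in the average and none was higher, with a list median of −0.12 log2. At day 2 the called genes were Foxo3, a relative of Foxo1 (−0.53 ± 0.112), Sik2, a kinase that restrains CREB coactivators (−0.35 ± 0.0893), and Gcgr, the glucagon receptor (−0.42 ± 0.115). Sik2 was under the 95th percentile of the negative controls, 6.16 log2, as were Adcy6 and Sirt1 among the 7 lower in the average. All 3 day 2 calls were lost without HPNWT day 2 replicate 2 or without EGFP day 2 replicate 2, and single arrays left out gave 0 to 4 lower calls. At days 1 and 4 none of the 20 was called. Ppargc1a, a coactivator of gluconeogenic genes, had an average difference of −0.37 log2 that did not pass (limma adjusted p = 0.215).

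From the insulin receptor to AKT, 3 of 19 genes were higher and 3 lower in the average, and without HPNWT day 4 replicate 3 the counts were 3 and 7. At day 1, 1 gene of this list was called higher and 1 lower. The higher one was Ptpn1, a phosphatase that acts on the insulin receptor (0.28 ± 0.0688). At day 2, 3 were called lower and none higher, among them Pik3r1, a regulatory subunit of phosphatidylinositol 3-kinase (−0.50 ± 0.132), and Rps6kb1, the S6 kinase (−0.40 ± 0.0883). At day 4 Trib3, a pseudokinase that binds AKT, was higher (1.07 ± 0.188, limma adjusted p = 0.00463). Rps6kb1 and Trib3 were also under the 95th percentile of the negative controls, so their values are differences of dim signals. Single arrays left out gave 0 to 5 lower calls in this list at day 2, with 0 if either HPNWT day 2 replicate 2 or EGFP day 2 replicate 2 was dropped, and 0 to 2 higher calls at day 1. Insr, the insulin receptor, differed by −0.13 log2 in the average and was not called (limma adjusted p = 0.266). Of 22 measured genes of substrate supply and the reversible steps, 5 were higher and 3 lower in the average, and at single days Gpd1, the cytosolic glycerol 3-phosphate dehydrogenase, was the only call (0.54 ± 0.120 at day 1). With single arrays left out, 2 to 7 genes were higher in the average, with 2 without EGFP day 2 replicate 2, and 2 to 3 were lower. The Gpd1 call at day 1 was lost when HPNWT day 1 replicate 1, HPNWT day 1 replicate 2 or EGFP day 1 replicate 1 was dropped. Named after their values were seen, the 5 were Got2, Ldha, Gpd1, Tpi1 and Gapdh, with differences of 0.14 to 0.26 log2, and the 3 were Got1 (−0.53), Gk (−0.41) and Aqp9 (−0.25). Aqp9 takes up glycerol, Gk phosphorylates it, and Got1 is the cytosolic aspartate aminotransferase. Eno1 and Ca5a were not matched by symbol.

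**Figure D4:**
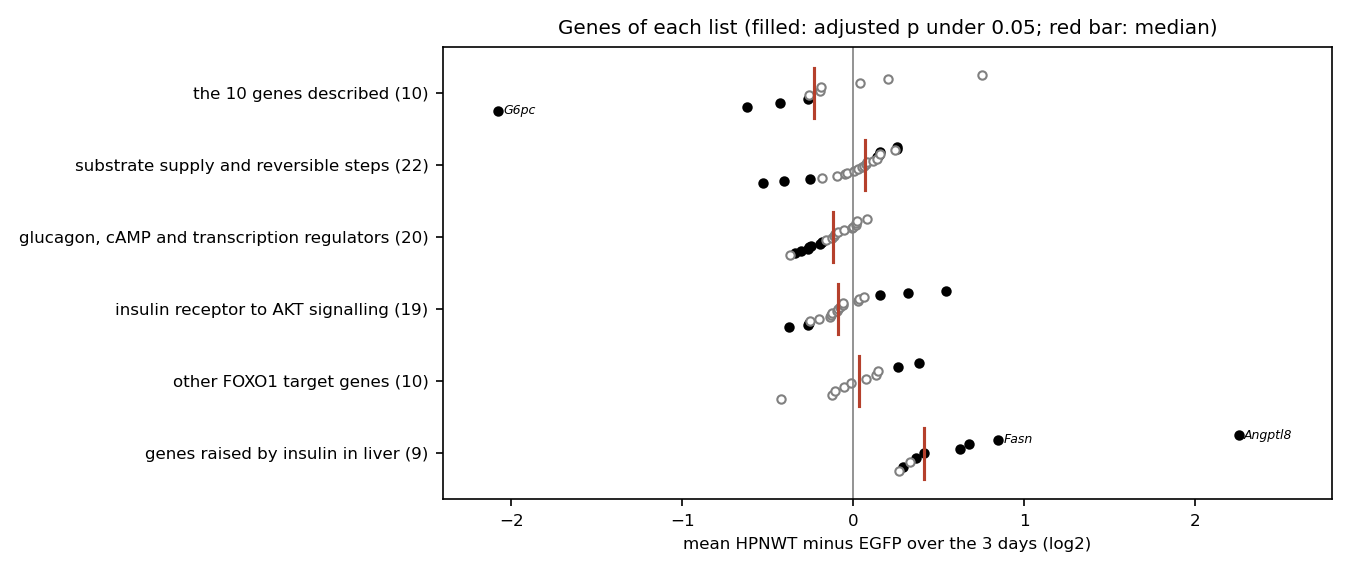
Average difference HPNWT minus EGFP over the 3 days (log2, horizontal axis) of each gene in the 10 described and in 5 wider lists, with filled points where the limma adjusted p is under 0.05 and a red bar at the list's median. The number measured stands after each list's name, and 7 of the 9 genes raised by insulin are filled to the right of 0.

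The authors' deposited table gives its own comparison at each day, on a log2 scale that is wider than that of the deposited values. In the authors' deposited table G6pc was 85.95-fold lower at day 1 (false discovery rate, FDR, 0.0847), 17.42-fold lower at day 2 (FDR 0.0464) and 56.03-fold lower at day 4 (FDR 0.0751). These folds exceed those from the deposited values, 3.60, 4.34 and 4.81, and the sources used here do not say how the authors' software scaled them. In the authors' deposited table Pck1 was 3.49-fold, 2.88-fold and 1.84-fold lower at days 1, 2 and 4 (FDR 0.035, 0.1144 and 0.3894). Igfbp1 in the authors' deposited table was 4.39-fold higher at day 1 (FDR 0.2129). It was 2.22-fold lower at day 2 (FDR 0.8944) and 1.48-fold higher at day 4 (FDR 0.8345) in the authors' deposited table. Fbp1 was 1.97-fold lower at day 1 in the authors' deposited table (FDR 0.0017). The sign was the same in both sources for 29 of 30 gene and day pairs, G6pc3 at day 2 being the exception. An FDR under 0.05 stood in the authors' deposited table for 3 of the 30 pairs. These were Pck1 and Fbp1 at day 1 and G6pc at day 2. The authors' deposited lists of changed clusters, whose entries have p up to 0.0497 and absolute folds from 2.01, hold G6pc, Pck1 and Igfbp1 at day 1, G6pc, Pck1 and Irs2 at day 2 and G6pc at day 4.

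Some other measures moved with the arms. With the negative-control median of each array as a covariate, 0 of the 10 genes were called in the average over days, against 4 without it, and 3.797% of all clusters were called, against 15.2%. The average differences were then −1.22 log2 for G6pc, −0.40 for Pck1, −0.23 for Fbp1 and −0.18 for Irs2 (limma adjusted p 0.147, 0.226, 0.0731 and 0.522). The 7 calls among the genes raised by insulin became 4 and the 7 among the glucagon and cAMP regulators became 0. The part of this shift in the results was not tested. Among markers of other cell types, 3 of 10 Kupffer cell and macrophage genes were lower in the average and none was higher. The 3 were Csf1r, Vsig4 and Timd4, of which Timd4 was under the 95th percentile of the negative controls. The summed level of the 10 genes was 10.11 to 10.71 log2 in HPNWT livers and 10.22 to 10.75 in EGFP livers. Of the 6 stellate cell genes 1 was higher and 1 lower, of the 5 cholangiocyte genes 2 were higher, and of the 7 sinusoidal endothelial genes none was called. The 2 cholangiocyte genes were Sox9 and Epcam, of which Epcam was under the 95th percentile of the negative controls. Of the 6 hepatocyte markers, Apoa1 and Ttr were higher and Tat was lower in the average. Of 2 measured erythroid genes, Alas2, the erythroid enzyme of haem synthesis, was lower (−0.38 ± 0.0636 log2 in the average, limma adjusted p = 0.000661). The summed erythroid level was 7.99 to 8.40 log2 in HPNWT livers and 8.27 to 8.77 in EGFP livers. Of 5 pancreas genes, all under the 95th percentile of the negative controls, 1 was higher. The 8 lymphocyte and the 6 neutrophil and monocyte markers were all under the 95th percentile of the negative controls, and none of them was called in the average. The part of these markers in the results was not tested.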

How the data were processed

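Liver RNA of 18 mice was hybridised to the Affymetrix Mouse Transcriptome Array 1.0. Per the labels, the authors made the deposited log2 values by RMA with the Transcriptome Analysis Console, of which the sources used here name no version. The authors' deposited comparison tables hold group averages in log2, a signed fold change used here as a score, a p-value and an FDR, per the file headers. Gene symbols came from these tables. The deposited tables give no probe-level intensities or hybridisation dates.

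The 40161 clusters with a symbol, including 3590 with several symbols that the text does not name, were fitted in limma 3.58.1 (run in R 4.3.3 alongside version 1.17.8 of data.table and version 1.5.0 of statmod) with 6 group means over 18 arrays, lmFit and eBayes, without filter or covariate. Tests were 2-sided. Adjusted p-values are Benjamini-Hochberg values over all clusters, called under 0.05. An exact permutation test of 3 against 3 cannot go below p = 0.1, so single days were tested in limma alone. Log2 differences are on the RMA scale. The fit was tested on simulated arrays. Deviations from group means gave the correlations, as descriptions with no p.

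Named from the wider lists were up to 3 called genes with the smallest p at each day, and for each member the 3 genes with the highest r, leaving out small RNAs, predicted genes and genes of olfactory or vomeronasal receptors. Other genes named from these lists, such as Ppargc1a and Insr, fall outside this rule and were named with earlier results of these data known. The members, lists and rules were chosen with earlier results of these data known. Alternatives were each array left out, the day's arrays alone, a replicate block, median centring, quantile normalisation, no dim clusters, array weights, a variance trend, the negative-control covariate and the mean over clusters of a symbol. Their use on the wider lists was chosen after seeing the data. The labels do not say that replicate numbers pair the animals, and no pairing was used. Deviations of same-numbered arrays correlated from −0.25 to 0.11, which does not settle whether animals were paired. Results of 2 genes that the wider lists and their counts include are not reported here.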

Additional observations from a re-analysis of the deposited data

How the results depend on the processing

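For the 10 genes, 1070 alternative values of the differences at 3 days and on average were computed, of which 983 kept direction and side of the threshold, 38 lost the call, 28 gained it and 21 changed sign. Many of these could change the p but not the difference. Leaving out an array of another day keeps a day's difference as it was. The replicate block, the variance trend, the removal of dim clusters and the mean over clusters of a symbol keep every difference of these genes. The 983 is therefore not a count of separate checks of direction. For the average differences of G6pc, Pck1, Fbp1 and Irs2, 100 of 104 alternatives kept the call and none changed sign. The 4 losses came with the negative-control covariate, whose values stand above. The genes called at days 1, 2, 4 and on average numbered 2, 1, 1 and 4. They numbered 1 to 4, 0 to 2, 0 to 2 and 4 to 6 with single arrays left out, and the F-test in HPNWT livers, with 0 called, then gave 0 to 1. With array quality weights they were 5, 3, 3 and 7, with Slc37a4 the 1 called higher among the 7 (0.28 log2), and the F-test gave 2. Calls rose in general with these weights, to 20.21%, 20.57%, 5.884% and 32.99% of all clusters, and to 3.464% in the F-test. With the negative-control covariate they were 1, 0, 0 and 0. With the day's 6 arrays alone they were 1, 4 and 0 at the 3 days, where 1.8%, 9.681% and 0.371% of all clusters were called. With quantile normalisation they were 1, 0, 0 and 4, with median centring 1, 1, 0 and 4, and without dim clusters 3, 2, 1 and 5. Without dim clusters, 20.17%, 19.78%, 6.575% and 40.46% of the 9049 clusters left were called. The replicate block gave 2, 1, 1 and 5, and the labels do not say that the numbers pair the animals. With the covariate, sign changed for Pcx at days 1 and 2 (0.051 and 0.050 log2), Foxo1 at days 1, 2 and 4 and on average (0.13, 0.29, 0.022 and 0.15), Slc37a4 at day 2 (−0.15) and Igfbp1 at day 2 (1.12), and with quantile normalisation for G6pc3 at day 1 (−0.0058). None of these was called. With arrays left out, sign changed within −0.037 to 0.12 for G6pc3 at day 1, −0.12 to 0.040 at day 2 and −0.0053 to 0.075 on average, −0.14 to 0.034 for Pcx, −0.34 to 0.0094 for Foxo1 and −0.47 to 0.085 for Irs1, all at day 1, −0.28 to 0.012 for Irs1 at day 2, and −0.062 to 0.30 for Slc37a4 and −0.046 to 1.07 for Igfbp1 at day 4. The causes were not tested. Over all clusters, higher calls at day 2 numbered 869 of 2277, against 413 of 1722 with median centring, 4557 of 8260 with array weights and 71 of 87 with the covariate.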
